A study of Mus musculus with 7 samples.

Results

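Kruppel-like factors are a family of transcription factors, and the levels of 10 of their genes (Klf2, Klf3, Klf4, Klf5, Klf6, Klf7, Klf9, Klf10, Klf13 and Klf15) were compared between mammary glands of PRA transgenic and wild-type mice. The genes were found by the gene name that the scanner files give each non-control probe, and they make up 10 of 37074 gene names and 19 of 56605 probes. The mice were nulliparous adult FVB females aged 20 to 25 weeks and taken at diestrus, and 1 abdominal gland was used from each after its lymph nodes were excised. The wild-type group held 3 animals and the PRA transgenic group held 4. PRA is isoform A of the progesterone receptor. In the transgenic mice a cytomegalovirus promoter drives the yeast activator GAL-4, which switches on a second transgene carrying PR-A behind GAL-4 binding sites, so that extra PR-A is not limited by a mammary promoter. Gland RNA was labeled with Cy5 and hybridized, with 1 animal per array, beside Universal Mouse Reference RNA, which pools RNA of mouse cell lines and was labeled with Cy3. Every value below is therefore a log2 ratio of gland over reference at the same probe, and the ratios of different probes were not set against each other.

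KLF proteins bind GC-rich and CACCC sequences through zinc fingers at the C terminus that are nearly alike in all members, and they differ in the rest of the protein. Members of group 1, such as Klf3, recruit the co-repressor CtBP. Members of group 2, here Klf2, Klf4, Klf5, Klf6 and Klf7, act mainly as activators through acetyltransferases. Members of group 3, here Klf9, Klf10 and Klf13, recruit the co-repressor Sin3a, and Klf15 stands apart. Several KLF genes are switched on within minutes to hours by serum, shear stress, TGF-beta or glucocorticoids. In the mammary gland Klf4 and Klf5 are known from the epithelium, Klf2 from endothelium and quiescent T cells, and Klf15 from fat and muscle. In whole gland RNA, fewer cells of a type and less RNA per cell cannot be told apart.

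All 7 arrays lay on 1 slide, with every wild-type array in the first row and every PRA transgenic array in the second. Slide row and genotype therefore cannot be told apart, and no dyes were swapped. A probe was tested if all arrays of 1 genotype or of both had its Cy5 signal well above background, which held for 34288 probes. No spot was saturated, and precision is limited by the number of arrays. The labels call the animals biological replicates, and p-values measure the spread between these 7 animals. Markers of endothelium, macrophages, fibroblasts, luminal and basal epithelium and white and brown fat were all measured, whereas skeletal muscle markers were unevenly spread, with mean log2 ratios of 2.33 and 3.29 in wild-type replicates 1 and 3 and 3.40 in PRA transgenic replicate 4 against -1.23 to -0.79 in the remaining 4 glands. Wild-type replicate 1 had the highest B cell marker ratio, 0.68 against -2.32 to -1.49 in the other 6 glands. The part of other tissues in the KLF values was not tested.

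The stretches just before the start sites of the KLF genes are shown first, since KLF genes are themselves targets of KLF, MEF2 and E-box binding factors. RefSeq windows of GRCm38.p6 matched 8 of the 10 genes, and the 250 bases before the start were searched on both strands for the MEF2 consensus, the CArG box of serum response factor, CACGTG, the GC box GGGCGG, CCNCNCCC and the palindromic glucocorticoid response element. GGGCGG read on the opposite strand can share letters with CCNCNCCC. The Klf2 window (chr8:72318812-72319061, plus strand) was the only one of the 8 with a MEF2 consensus, in capitals, beginning 118 bases before the start. Of 32851 windows of this length, 2.92% held one.
Klf2: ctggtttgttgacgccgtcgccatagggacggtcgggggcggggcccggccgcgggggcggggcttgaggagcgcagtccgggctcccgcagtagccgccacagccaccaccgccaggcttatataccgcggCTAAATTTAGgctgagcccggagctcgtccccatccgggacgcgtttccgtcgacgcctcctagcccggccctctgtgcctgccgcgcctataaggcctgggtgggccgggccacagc
The Klf4 window (chr4:55532476-55532725, minus strand) held 9 matches to CCNCNCCC, a letter pattern that KLF zinc fingers read, and these are in capitals. A match to this pattern was present in 45.9% of all windows.
Klf4: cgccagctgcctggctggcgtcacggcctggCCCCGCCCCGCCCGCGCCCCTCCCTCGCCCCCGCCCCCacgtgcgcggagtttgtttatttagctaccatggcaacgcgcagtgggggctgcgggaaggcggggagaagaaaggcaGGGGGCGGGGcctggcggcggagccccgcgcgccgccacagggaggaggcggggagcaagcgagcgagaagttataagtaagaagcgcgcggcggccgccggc
The Klf15 window (chr6:90462326-90462575, plus strand) held CACGTG, an E-box read by clock and MYC-family proteins and in capitals here, at 228 and 172 bases before the start, against 6.02% of all windows with at least 1 match.
Klf15: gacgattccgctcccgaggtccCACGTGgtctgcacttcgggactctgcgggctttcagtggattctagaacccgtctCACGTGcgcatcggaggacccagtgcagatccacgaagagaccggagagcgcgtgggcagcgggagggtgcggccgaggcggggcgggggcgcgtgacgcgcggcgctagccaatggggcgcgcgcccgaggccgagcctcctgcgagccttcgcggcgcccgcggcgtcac
CACGTG was also found once in the windows of Klf4, at 182, and of Klf6, at 43 bases before the start. No window of the 8 genes held a CArG box or the palindromic glucocorticoid response element, which occurred in 1.47% and 0.00913% of all windows. A match is a description of the letters and not evidence of binding.

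The zinc fingers that define the family also bear on how well a probe tells its members apart. Among 159 pairs of probes of different members, the pair most alike was the brightest probe of Klf5 and the brightest probe of Klf13, each 60 bases long. They had 29 identical bases of 40 that overlap, which are in capitals.
Klf5: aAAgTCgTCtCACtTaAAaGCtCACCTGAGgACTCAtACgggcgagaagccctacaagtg
Klf13: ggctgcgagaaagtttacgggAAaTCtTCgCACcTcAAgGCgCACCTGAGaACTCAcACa
Every other pair had at most 26 identical bases, a number reached over overlaps of 57 and 59 bases. The amount of cross-hybridization was not tested.

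None of the 10 KLF genes passed the test between genotypes at an adjusted p under 0.05 (limma with Benjamini-Hochberg adjustment over all tested probes), and the lowest adjusted p was 0.462. Over all probes 4 passed, which is 0.0117%. At an unadjusted p under 0.05, 2 of the 10 genes were called, against 9.02% of all tested probes (4.48% lower and 4.54% higher). At the looser threshold of the study, an unadjusted p under 0.05 and a difference of at least 1.5-fold, Klf2 and Klf10 were lower in PRA transgenic glands by limma and no member was higher. With the methods' t-test in place of limma, Klf2 alone passed, and the unadjusted p of Klf10 was 0.0563. Over all tested probes 2.59% were lower and 1.94% were higher by this threshold. Klf2 is in the study's own gene tables, which were drawn from these samples, so its place on the list is not independent evidence of its direction. On average 6 of the 10 genes were lower in PRA transgenic glands, against 45.8% of all tested probes. The median log2 fold change of the 10 genes was -0.06, with a range of -0.84 to 0.18, and that of all tested probes was 0.02. For none of the 10 genes was every PRA transgenic gland below every wild-type gland, or above it, whereas this held for 4.51% (below) and 5.41% (above) of all tested probes.

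**Figure D1:**
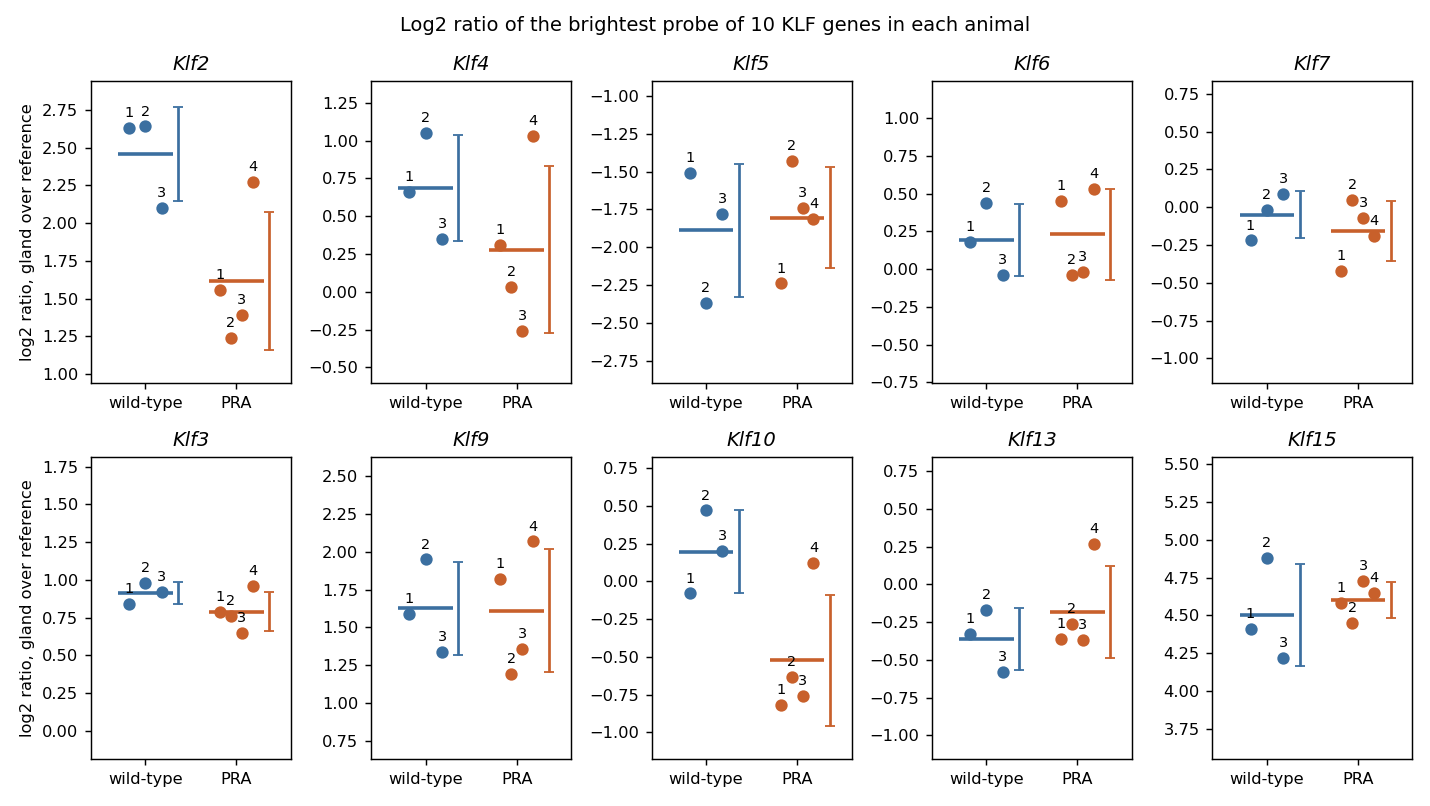
Log2 ratio of gland over reference (vertical axis, the same span of 2 log2 units in every panel) for the brightest probe of each KLF gene, in 3 wild-type and 4 PRA transgenic animals, numbered by replicate. Horizontal lines are means and error bars are the SD. Klf2 and Klf10 have 3 of 4 PRA transgenic glands below every wild-type gland, with replicate 4 among or near the wild-type values.

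Klf2, an activator that keeps endothelium and T cells quiescent, showed the largest difference among the group 2 genes. Its only probe (A_51_P144264, chr8:74845137-74845196 on mm9) gave log2 ratios of 2.63, 2.64 and 2.10 in wild-type replicates 1 to 3 and 1.56, 1.24, 1.39 and 2.27 in PRA transgenic replicates 1 to 4. PRA transgenic replicates 1, 2 and 3 lay below all wild-type glands, and replicate 4 lay above wild-type replicate 3. The wild-type mean was 2.46 ± 0.31 (SD, n = 3) and the PRA transgenic mean was 1.62 ± 0.46 (SD, n = 4). The log2 fold change was -0.84 with a standard error (SE) of 0.28 and a 95% interval of -1.49 to -0.20, or 1.80-fold lower. The unadjusted p of limma was 0.0177 and the adjusted p 0.462. A p as low as this was found for 3.81% of all tested probes.

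Klf4, which acts with Klf2 in endothelium and is also an epithelial differentiation factor, had log2 ratios of 0.66, 1.05 and 0.35 in wild-type glands and 0.31, 0.03, -0.26 and 1.03 in PRA transgenic glands. PRA transgenic replicates 1 to 3 were again below the lowest wild-type gland and replicate 4 lay just under the highest. The difference of -0.41 (SE 0.32, 95% interval -1.17 to 0.35, adjusted p = 0.757 from limma) was within the spread between animals. The arrangement of animals was that of Klf2, with a wider spread in the PRA transgenic group.

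Klf5, which promotes proliferation of basal epithelium, was the only group 2 gene well below the reference in every gland. Its log2 ratios were -1.51, -2.37 and -1.78 in wild-type and -2.24, -1.43, -1.74 and -1.81 in PRA transgenic glands. The genotypes overlapped almost fully, and the log2 fold change was 0.08 (SE 0.26, 95% interval -0.53 to 0.70). A second Klf5 probe was not tested, since its Cy5 signal passed the background on 2 arrays of each genotype. Klf6, an early-response activator, had ratios of 0.18, 0.44 and -0.04 in wild-type and 0.45, -0.04, -0.02 and 0.53 in PRA transgenic glands, with a log2 fold change of 0.04 (95% interval -0.44 to 0.52). Its PRA transgenic glands formed a higher pair, replicates 1 and 4, and a lower pair, replicates 2 and 3. Klf7, which restrains fat cell differentiation, had ratios of -0.22, -0.02 and 0.09 in wild-type and -0.42, 0.05, -0.07 and -0.19 in PRA transgenic glands at its brightest probe, which is a difference of -0.11 (95% interval -0.47 to 0.25). The other Klf7 probes disagreed in direction. One (A_52_P239424) had a log2 fold change of -0.38 (unadjusted p = 0.0364, adjusted p = 0.519 from limma), and the other (A_65_P06809) one of 0.24 (adjusted p = 0.771).

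Klf3, the group 1 repressor that works through CtBP in fat and blood cells, had the tightest wild-type values of the 10 genes. Its brightest probe gave log2 ratios of 0.84, 0.98 and 0.92 in wild-type and 0.79, 0.76, 0.65 and 0.96 in PRA transgenic glands. As for Klf2 and Klf4, PRA transgenic replicates 1 to 3 were below all wild-type glands and replicate 4 was not, but the size was small, at a difference of -0.12 (SE 0.12, adjusted p = 0.809 from limma). The other Klf3 probes gave -0.33 (adjusted p = 0.604) and -0.39 (adjusted p = 0.544). The latter probe (A_51_P492640) was the only one of the 16 tested KLF probes whose genotypes did not overlap, with 0.58 to 0.94 in wild-type and 0.05 to 0.56 in PRA transgenic glands. Of all tested probes 4.51% were lower and 5.41% were higher without overlap.

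Among the group 3 repressors the genes went different ways. Klf10, first known as a TGF-beta-inducible early gene, had log2 ratios of -0.08, 0.47 and 0.20 in wild-type glands at its brightest probe (A_55_P2022074, chr15:38224255-38224314 on mm9). In PRA transgenic glands they were -0.82, -0.63, -0.76 and 0.12. PRA transgenic replicates 1 to 3 lay close together and below every wild-type gland, and replicate 4 lay between wild-type replicates 1 and 3. The log2 fold change was -0.72 (SE 0.26, 95% interval -1.33 to -0.10, unadjusted p = 0.0278, adjusted p = 0.492 from limma), or 1.65-fold lower. The second Klf10 probe did not pass the background in Cy5 on any array.

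Klf9, a target of progesterone, glucocorticoid and thyroid hormone receptors that can bind the progesterone receptor, did not share this arrangement. Its log2 ratios were 1.59, 1.95 and 1.34 in wild-type and 1.82, 1.19, 1.36 and 2.07 in PRA transgenic glands. The highest and the lowest of the 7 values were both PRA transgenic, and the log2 fold change was -0.02 (SE 0.25, 95% interval -0.62 to 0.58). The second Klf9 probe gave 0.14, with the animals of each genotype in the same order. Klf13, a regulator of lymphocyte and lipid genes, had ratios of -0.33, -0.17 and -0.58 in wild-type and -0.36, -0.26, -0.37 and 0.27 in PRA transgenic glands. PRA transgenic replicate 4 stood above the other 6 glands, and the log2 fold change of 0.18 (95% interval -0.29 to 0.64) came with -0.15 at the second tested probe. A further Klf13 probe passed the background in Cy5 on 2 wild-type arrays and 1 PRA transgenic array and was not tested.

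Klf15, a glucocorticoid-induced factor of amino acid and glucose metabolism in muscle, liver and fat, had log2 ratios of 4.41, 4.88 and 4.22 in wild-type and 4.58, 4.45, 4.73 and 4.65 in PRA transgenic glands. All PRA transgenic values lay inside the wild-type range. The log2 fold change was 0.10 (SE 0.18, 95% interval -0.31 to 0.52, adjusted p = 0.910 from limma).

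The differences were also read in each channel, since the reference RNA is the same on every array. Cy5 alone was lower in PRA transgenic glands for 9 of the 10 genes, but the median of all tested probes was also lower, by -0.20 in Cy5 and by -0.22 in Cy3, so Cy5 was taken relative to the 75th percentile of each array. On that scale 6 of the 10 genes were lower, as in the ratio. Klf2 had values of 3.29, 3.29 and 2.74 in wild-type and 2.20, 1.87, 2.00 and 2.79 in PRA transgenic glands, a log2 difference of -0.89 (SE 0.25, unadjusted p = 0.00906, adjusted p = 0.429 from limma). Klf10 had values of 2.51, 3.04 and 2.85 in wild-type and 1.71, 1.91, 1.83 and 2.63 in PRA transgenic glands, a log2 difference of -0.78 (adjusted p = 0.466). In the Cy3 channel, which carries no gland RNA, the differences of the 10 genes ran from -0.27 to -0.01. The Klf2 and Klf10 differences were present in the gland channel after scaling, and the Cy3 differences of these genes, -0.25 and -0.27, were close to the median of all probes. The brightest probe of every member was well above background in both channels on all 7 arrays.

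**Figure D2:**
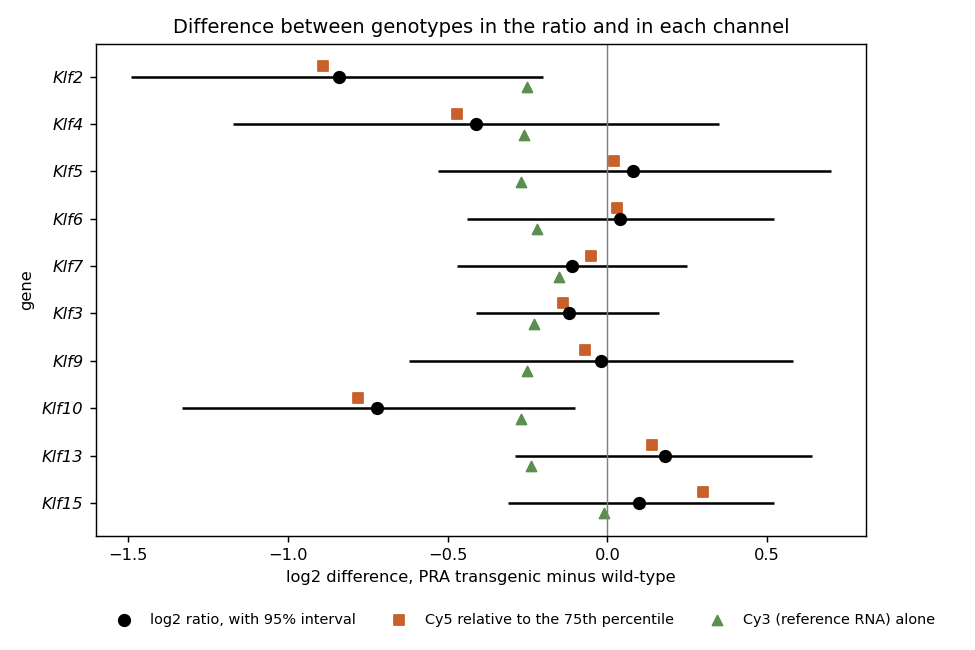
Log2 difference between genotypes, PRA transgenic minus wild-type (horizontal axis), for each KLF gene. Circles with lines are the log2 ratio with its 95% interval, squares are Cy5 relative to the 75th percentile of each array, and triangles are the Cy3 reference alone, the last 2 drawn without error. The intervals of Klf2 and Klf10 lie below 0, and the squares of both genes stay close to their circles.

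The animals of a group did not share the spread evenly. PRA transgenic replicate 4 was the highest of its group for 7 of the 10 genes and the lowest for none, whereas it was the highest of its group at 25.7% of all tested probes. Wild-type replicate 2 was the highest of its group for 8 of the 10 genes, against 38.3% of all tested probes. The KLF genes share these animals, so the 10 counts are not independent. For Klf2, Klf3, Klf4 and Klf10 the 3 PRA transgenic glands other than replicate 4 were all below the lowest wild-type gland. Without that array 8.06% of all tested probes were lower without overlap. Without PRA transgenic replicate 4 the log2 fold change was -1.06 for Klf2 (adjusted p = 0.228 from limma), -0.93 for Klf10 (adjusted p = 0.228) and -0.66 for Klf4 (adjusted p = 0.366), and these 3 genes passed the looser threshold. Without wild-type replicate 2 none passed it, with -0.75 for Klf2 and -0.58 for Klf10. Leaving out any 1 of the remaining 5 arrays left 1 gene past it, Klf10 without wild-type replicate 1 and Klf2 in the other cases. The share of all tested probes past this threshold was read only with all 7 arrays, at 2.59% lower and 1.94% higher. Replicate 4 of the PRA transgenic group also had the highest macrophage marker ratio of the 7 glands, 2.50 against 1.32 to 1.79 in the other PRA transgenic glands, and a fibroblast marker ratio of 2.76 against 2.20 to 2.27, besides the skeletal muscle markers given above. Endothelium markers, which cover cells rich in Klf2, had mean log2 ratios of 4.78 to 4.87 in wild-type and 4.63 to 5.04 in PRA transgenic glands. Their median log2 fold change was 0.16 over 9 markers, with the lowest p for Emcn (0.78, adjusted p = 0.330 from limma). Emcn had Cy3 above background on 1 wild-type array only, and in Cy5 relative to the 75th percentile its difference was 0.35. T cell markers, from another source of Klf2, had a median of -0.65 over 8 markers, and wild-type replicate 1 stood at 1.75 against -0.50 to 0.13 in the other 6 glands. The part of these cells in the KLF values was not tested. When wild-type replicate 1 was left out Klf2 stood at -0.76 with an unadjusted p of 0.059 from limma. Its call at the looser threshold was then lost. The call was also lost without wild-type replicate 2, whose T cell marker mean was -0.26. There Klf2 stood at -0.75 with an unadjusted p of 0.0603 from limma.

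**Figure D3:**
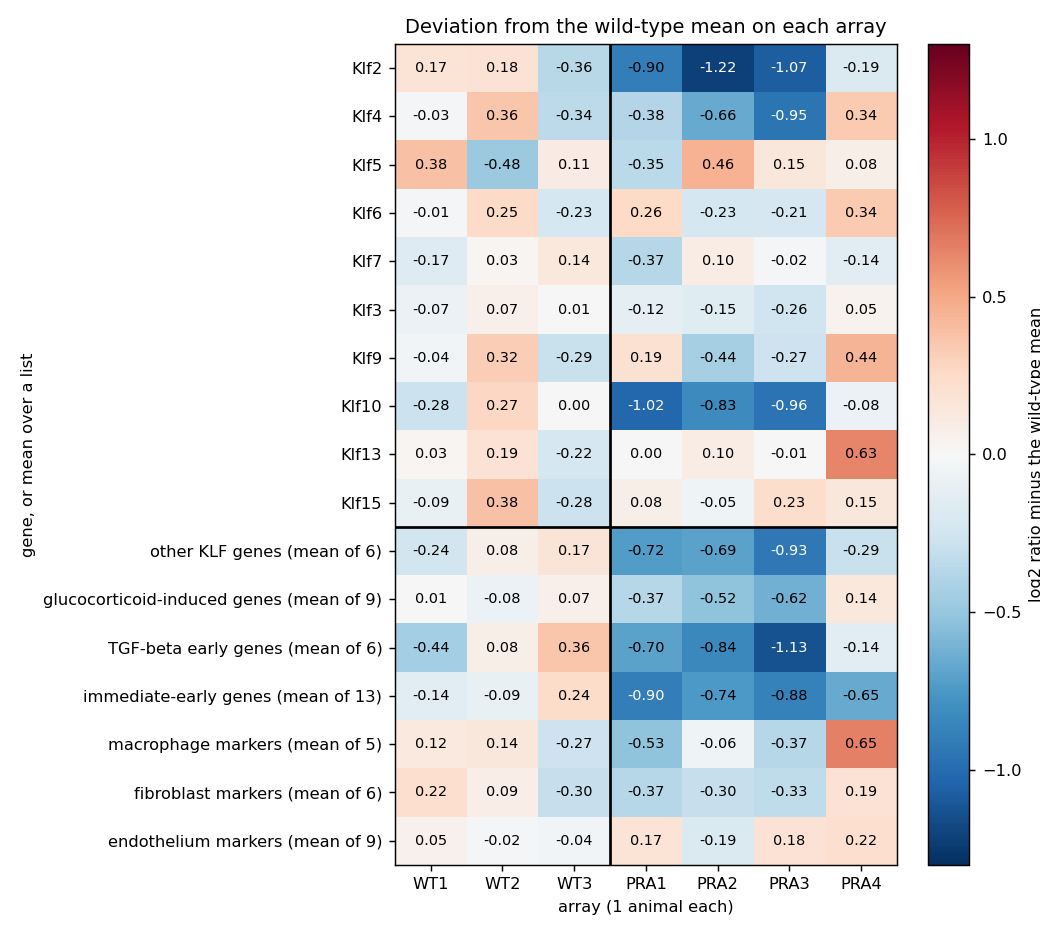
Log2 ratio minus the wild-type mean (color and printed value) on each of the 7 arrays, for the 10 KLF genes and, under the line, for the mean of each list named. In PRA transgenic replicates 1 to 3 Klf2 lay at -1.22 to -0.90 and Klf10 at -1.02 to -0.83, and in replicate 4 they lay at -0.19 and -0.08.

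**Figure D4:**
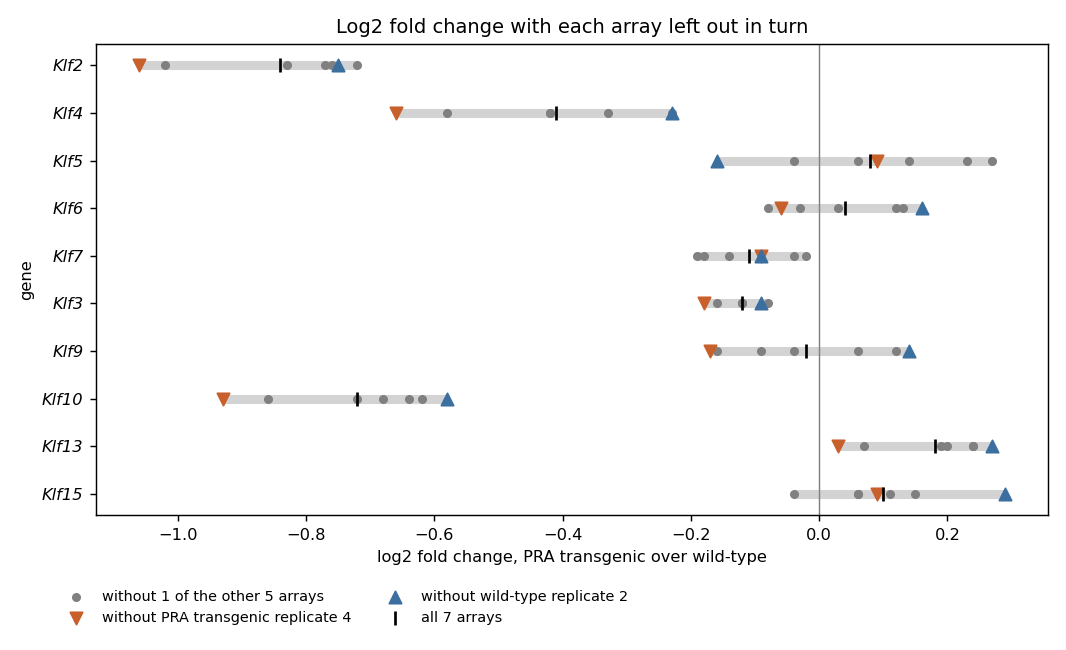
Log2 fold change, PRA transgenic over wild-type (horizontal axis), of each KLF gene with all 7 arrays (black bars) and with each array left out in turn (other points). Klf2, Klf10, Klf4, Klf3 and Klf7 stay below 0 throughout, and the remaining genes except Klf13 cross 0.

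The rest of the family was read from a list of 7 further KLF genes, of which 6 were tested. All 6 were lower on average in PRA transgenic glands, with a median log2 fold change of -0.58, and 2 had an unadjusted p under 0.05, but none had an adjusted p under 0.05. Of all tested probes 45.8% were lower on average, 4.48% were lower at an unadjusted p under 0.05 and 4.51% were lower without overlap. Klf11, the close relative of Klf10, had log2 ratios of 1.03, 0.94 and 1.75 in wild-type and 0.46, 0.66, 0.19 and 0.80 in PRA transgenic glands. The genotypes did not overlap, and the difference was -0.71 (SE 0.24, adjusted p = 0.463 from limma). Cy3 of Klf11 was above background on 3 wild-type and 2 PRA transgenic arrays, and in Cy5 relative to the 75th percentile the difference was -1.04. Klf14, known from fat, also did not overlap, with 3.88 to 5.59 in wild-type and 2.19 to 3.79 in PRA transgenic glands and a difference of -1.69 (adjusted p = 0.443). Its Cy3 signal did not pass the background on any array, and in Cy5 relative to the 75th percentile the difference was -1.11. Klf8 stood at -0.44 (adjusted p = 0.753). Klf12, for which Cy3 was likewise dim, had a log2 fold change of -0.74 in the ratio and 0.35 in scaled Cy5, so that its direction depends on the scale. The related Sp genes, which share the zinc fingers, had 7 of 9 tested, none with an unadjusted p under 0.05, and a median of -0.11. The lowest p among them was that of Sp9, which was higher in PRA transgenic glands by 0.77 on the log2 scale (adjusted p = 0.590 from limma) and by 0.53 in scaled Cy5, with Cy3 not above background on any array. Sp1 lay at -0.54 to -0.50 in wild-type and -0.78 to -0.65 in PRA transgenic glands, a difference of -0.20 (adjusted p = 0.626).

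Genes whose products act with or upstream of KLF proteins did not pass the test. None of the 7 co-repressor genes, including Hdac2 (log2 fold change 0.31) and Sin3a (-0.17), and none of the 5 co-activator and ubiquitin ligase genes, including Fbxw7 (-0.30) and Wwp1 (-0.17), had an unadjusted p under 0.05. The medians were -0.01 and -0.06. The kinase cascade of ERK5 and the MEF2 factors, which switch on Klf2 and Klf4 in endothelium under flow, had 6 genes tested with a median of 0.02, with Mef2d at -0.21 and Mef2c at -0.22 and none at an unadjusted p under 0.05.

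Targets of Klf2, Klf4 and Klf15 did not pass the test either. Of 3 genes that Klf2 activates, none had an unadjusted p under 0.05, with S1pr1 at -0.31, Thbd at 0.42 and Nos3 at 0.10 on the log2 scale. The 2 tested genes that Klf2 or Klf4 repress in endothelium, Edn1 and Vcam1, had log2 fold changes of -0.13 and -0.08. The 4 metabolic targets of Klf15 were all higher on average, with a median of 0.25, but none had an unadjusted p under 0.05 and the lowest p were those of Slc2a4 (0.28, adjusted p = 0.610 from limma) and Prodh (0.32, adjusted p = 0.644). Of 5 adipogenic factors, Srebf1 alone had an unadjusted p under 0.05, at 0.69 on the log2 scale (adjusted p = 0.518).

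The lists of inducible genes that KLF genes are known to belong with were lower on average, with no gene past the adjusted test. Of 13 immediate-early genes, transcribed directly after growth factor or stress signals, 10 had an unadjusted p under 0.05 and all of these were lower. The median log2 fold change over the list was -0.61, but none had an adjusted p under 0.05. For this list and the 2 below, the share of all tested probes lower at an unadjusted p under 0.05 was 4.48%, and 45.8% were lower on average. The study had picked 8 of the 13 for its gene tables, from these samples, so that the count of 10 is not independent evidence of a direction. Those with the lowest p were Junb (-0.69) and Egr3 (-1.20), both picked by the study. Of the 5 not in those tables, Fos (-1.37), Egr2 (-1.44) and Btg2 (-0.54) had an unadjusted p under 0.05. The tables do not give the study's full list of changed genes. These 3 genes were read on the same 7 arrays, so they are not independent evidence either. The mean of the list was -1.42 to -1.04 in wild-type and -2.18 to -1.93 in PRA transgenic glands, and replicate 4 of the PRA transgenic group, at -1.93, was on the side of its own group. For Klf2, Klf4 and Klf10 that animal lay among the wild-type values, and the difference between the list and these genes was not tested. Of 6 early TGF-beta genes, 2 had an unadjusted p under 0.05, Smad7 (-0.76) and Pmepa1 (-0.83, picked by the study), and the median was -0.76. Of 9 glucocorticoid-induced genes 3 did, Ddit4 (-0.97, picked by the study), Dusp1 (-0.66) and Per1 (-0.57), and the median was -0.30. Both lists had PRA transgenic replicate 4 apart from its group. The mean of the glucocorticoid-induced genes was 0.03 there, against -0.73 to -0.48 in the other PRA transgenic glands and -0.19 to -0.04 in wild-type glands. That of the early TGF-beta genes was -0.53 there, against -1.52 to -1.09 and -0.83 to -0.03. The likeness of these profiles to those of the KLF genes was not tested.

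**Figure D5:**
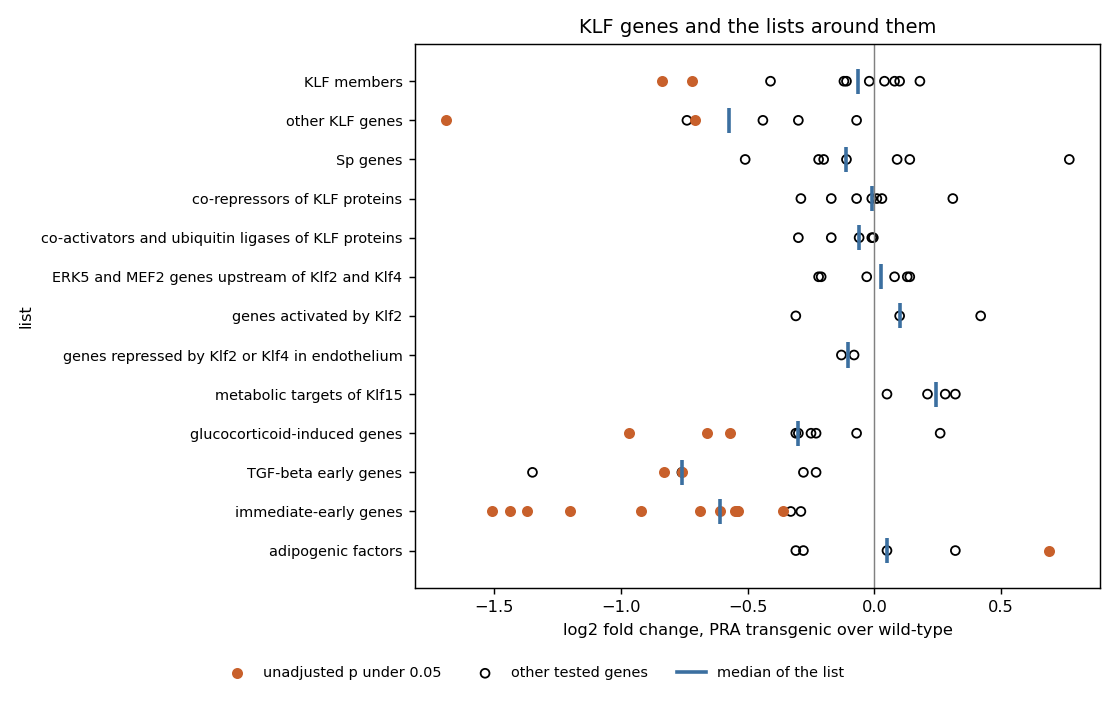
Log2 fold change, PRA transgenic over wild-type (horizontal axis), of each tested gene of the KLF members and of 12 lists around them. Filled points have an unadjusted p under 0.05, open points do not, and the vertical bar is the median of the list. Filled points are present for the members and in 5 of the lists. They lie below 0 except that of Srebf1 among the adipogenic factors, at 0.69, and 10 of the 13 immediate-early genes are among them. Over all tested probes 9.02% had an unadjusted p under 0.05.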

How the data were processed

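Per the labels, total RNA of 3 wild-type and 4 PRA transgenic glands was hybridized on 2-color Agilent arrays. The authors deposited scanner files written by Agilent Feature Extraction (12.0 in the submitters' processing notes, 11.5.1.1 in the file headers), whose processed intensity values are background-subtracted and dye-normalized with surrogates for dim signals, which compresses differences of dim probes. The authors also deposited a table of log2 ratios, found to be these ratios centered on each probe's median over the arrays. From the intensities log2(Cy5/Cy3) was computed, leaving out control and outlier spots and averaging the spots of each probe. Genotypes were compared in limma 3.58.1 (R 4.3.3; lmFit, eBayes) over 34288 probes, with Benjamini-Hochberg adjustment. The brightest probe in Cy5 stood for a gene. Positions of probes are those of the files, on mm9, and start-site windows are from RefSeq on GRCm38.p6. Named are all 10 KLF genes and, from related lists, the 2 to 4 genes with the lowest p (Srebf1 and Emcn alone from theirs). In those lists Btg2, Egr2 and Fos were named after their values were seen. The KLF genes, the lists and the tests were chosen with earlier results of these data known. Cebpd stands in both the glucocorticoid and the adipogenic list. 1 gene of a list is not reported here.

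Alternatives were normexp (offset 50) with loess, the deposited log2 table, other filters on dim probes, Cy5 alone with and without scaling, quantile normalization, the methods' t-test, array weights, an intensity trend in eBayes, a replicate block, leaving out each array in turn and the median over probes. The fit was tested on simulated data with 200 changed probes. At an adjusted p under 0.05 it found 27% of the 2-fold and 77% of the 4-fold changes. It also called 4 unchanged probes. Markers of Schwann cells were measured, with a median log2 fold change of 0.10. Those of luminal epithelium, basal epithelium, white and brown fat, macrophages, fibroblasts, B cells and skeletal muscle had medians of -0.21, 0.08, 0.17, 0.26, -0.15, -0.12, -0.64 and -2.02.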

Additional observations from a re-analysis of the deposited data

Results flagged for a closer look

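In 4 of 21 groups of 4 PRA transgenic values examined, 1 animal stood apart from the others. Chance gives about 1 in 20 groups, or 1.05, where groups are independent. These groups are the same 4 animals read at different genes or lists, so the 2 counts do not measure an excess. For Klf13, PRA transgenic replicate 4 (0.27) lay above the other 3 (-0.37 to -0.26), with a gap of 0.832 of the group's range. The mean of the skeletal muscle markers was highest in the same animal (3.40 against -1.23 to -0.79, gap 0.905 of the range), as was that of the fibroblast markers (2.76 against 2.20 to 2.27, gap 0.87). The mean of the endothelium markers was lowest in PRA transgenic replicate 2 (4.63 against 4.99 to 5.04), with a gap of 0.887 of the range. Of these markers Cdh5, at 5.61 there against 7.30 to 7.60, had Cy3 above background on no array. Kdr, Tek, Tie1 and Emcn had it on 1 wild-type array each. Groups of 3 wild-type animals are too small for this comparison.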

How the results depend on the processing

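No KLF gene had an adjusted p under 0.05 in any of the 19 alternatives, and the lowest was 0.228. Klf2, Klf3, Klf4, Klf7 and Klf10 kept their sign in all 19, with Klf2 from -1.10 to -0.72 and Klf10 from -0.99 to -0.58. The deposited log2 table, the filters on dim probes, the t-test and the intensity trend leave a probe's estimate unchanged (Klf2 at -0.84 in each). A kept sign in those settings was fixed in advance. The replicate block repeats the estimate without PRA transgenic replicate 4 (Klf2 at -1.06 in both). The count of genes lower by 1.5-fold at an unadjusted p under 0.05 was 2 and became 1 with the methods' t-test (Klf2). Over the settings that omit 1 array it ranged from 0 to 3. It was 3 without PRA transgenic replicate 4, 0 without wild-type replicate 2 and 1 when any of the remaining 5 was omitted. The share of all tested probes past this threshold was read only in the main fit, at 2.59% lower. The count of genes without overlap and lower was 0. It became 1 with Cy5 alone (Klf10), where the share of all tested probes was not read. When 1 array was omitted the count ranged from 0 to 4, the 4 without PRA transgenic replicate 4. In that setting 8.06% of all tested probes had no overlap and were lower. The count of genes without overlap and higher ranged from 0 to 1 (Klf15, without wild-type replicate 2). In that setting 10.6% of all tested probes had no overlap and were higher. The signs of the small differences were not stable. With Cy5 alone, where the median of all tested probes was -0.20, Klf5 was -0.18, Klf6 -0.18 and Klf13 -0.07. In Cy5 relative to the 75th percentile of each array they were 0.02, 0.03 and 0.14. Klf6 was -0.003 with quantile normalization and -0.05 with array weights, and Klf9 was 0.03 with quantile normalization and 0.06 with the median over probes. With arrays left out Klf5 ranged from -0.16 to 0.27, Klf6 from -0.08 to 0.16, Klf9 from -0.17 to 0.14 and Klf15 from -0.04 to 0.29. The causes were not tested.

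Whether the replicate numbers pair the animals cannot be told from these arrays. Same-numbered arrays deviated with correlations of 0.0997, -0.297 and 0.0362, and the other pairs ran from -0.301 to 0.381. With 3 and 4 arrays in the groups, such values can neither show nor exclude a pairing. With the replicate block, PRA transgenic replicate 4 has no partner and drops out. Klf2 was then -1.06, Klf10 -0.93, Klf4 -0.66 and Klf6 -0.06, and the count at the looser threshold was 3. The share of all tested probes past that threshold was not read with the block. A slide block was not run, as all arrays shared 1 slide.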
